A study of Mus musculus with 8 samples.

Results

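The p53 tumour suppressor gene Trp53 and 9 of its target genes were followed in whole liver of WT mice and of mice with a liver-specific knockout of the ubiquitin ligase gene Huwe1. The 10 genes were Trp53, Mdm2, Ccng1, Cdkn1a, Plk2, Zmat3, Eda2r, Perp, Phlda3 and Trp53inp1. Each was taken from the authors' deposited table by its symbol, and all 10 were found among the 16640 genes listed. The study compared livers from 4 WT mice with livers from 4 mice carrying a liver-specific Huwe1 knockout (Huwe1_LKO), all 1 year old and kept on chow. The labels do not name the promoter that drove the deletion, the exons removed, or the sex and litter of the mice. Whole liver also holds cells outside the hepatocyte lineage, and in such bulk RNA fewer cells of a type and less RNA per cell cannot be told apart.

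p53 is a transcription factor that is made continuously and degraded rapidly in unstressed cells. DNA damage and other stresses stabilise the protein, which then switches on genes for cell cycle arrest, repair, death and its own removal. MDM2 is the ubiquitin ligase that chiefly removes it, and HUWE1 (also called ARF-BP1 or MULE) is known as a further ligase that can mark p53, as well as the survival protein MCL1. Control of p53 acts mostly on the protein, which was not measured here, so the RNA of its targets is the readout available.

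Target genes carry a p53 response element, a pair of copies of a decamer known as the p53 consensus. The best match to a pair of decamers without a gap was looked up in the RefSeq promoter windows of GRCm38.p6, which run from 250 bases before to 50 bases after each annotated start. The motif is its own reverse complement, so the search covers both strands. Windows were held for 7 of the 10 genes, 8 windows in all, with 2 starts for Cdkn1a. The best 20-base sites of 5 genes follow, chosen to show the closest matches (Cdkn1a, Ccng1 and Trp53) beside both genes that rose in Huwe1_LKO (Plk2 and Eda2r). Capitals mark bases that match the consensus, each site reads 5′ to 3′ on the strand of its gene, and positions count the start base as 0.

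Cdkn1a: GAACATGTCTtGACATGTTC
Ccng1: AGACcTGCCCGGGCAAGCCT
Trp53: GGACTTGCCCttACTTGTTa
Plk2: GctCTTGCTCGcACAAGCga
Eda2r: AGAtTAGgCTAGAtcTaaCT

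The Cdkn1a site matched at 19 of 20 bases (chr17:29090928-29090947, plus strand). It lies 51 to 32 bases before the upstream start of Cdkn1a, outside any exon of GENCODE M21, and ends 2822 bases before the downstream start. Ccng1 also matched at 19 of 20 bases (chr11:40755462-40755481, minus strand), 195 to 176 bases before its start and outside any exon. Matches with at most 1 mismatch were held by 0.0883% of 32851 promoter windows. Trp53 had a site with 3 mismatches 75 to 56 bases before its start (chr11:69580284-69580303, plus strand), a level reached by 6.29% of windows. The best site of Plk2 had 5 mismatches (chr13:110395038-110395057, plus strand, reaching from base -6 into the first exon at base 13), and 76.6% of windows hold one as good. The best site of Eda2r had 6 mismatches (chrX:97377412-97377431, minus strand), as good as in 98.5% of windows. Mdm2 and Phlda3 had 5 mismatches at best. Perp, Zmat3 and Trp53inp1 had no window in the table used. Neither gene with a site of at most 1 mismatch passed the test described next. Of the 3 genes that passed, Plk2 and Eda2r held no such site in these windows, and Perp could not be searched. Pairs with a gap and sites outside these windows, as in introns, were not searched. A poor match here therefore does not show that a gene lacks a p53 response element.

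The deposited levels are depth-normalized values, 1 for each gene and genotype, so no value for a single liver can be shown. Their ratio is the deposited fold change, so where reads are few and fold changes appear shrunken, both levels lie closer together than the reads would. A gene was called changed when the authors' adjusted p, from DESeq2 over all 16640 genes, was under 0.05. The error given with each log2 fold change is the standard error (SE) that the authors' unadjusted p implies. The labels do not describe how the livers were collected beyond genotype, so the p-values measure only the spread among these 8 samples, which may be in part technical. Huwe1 itself (Entrez ID 59026; chromosome X, 151800785 to 151935417) stood at 2666 in WT and 1784 in Huwe1_LKO according to the authors' deposited table, a log2 fold change of -0.58 (SE 0.13, DESeq2 adjusted p = 0.000425). The hepatocyte gene Alb, for albumin, had values of 1192099 and 1629594 in the deposited table, the highest of any gene named here.

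Of the 10 genes, Eda2r and Plk2 rose, Perp fell, and 7 did not pass according to the authors' deposited table. Trp53 RNA did not pass and was nearly equal in both genotypes. Over the whole deposited table, 9.97% of genes were called, 4.41% as higher and 5.56% as lower. Among genes with a mean value of at least 10, a level that all 10 members reached, 13.1% were called. At an unadjusted p under 0.05, 4 of the 10 lay higher (Eda2r, Plk2, Phlda3, Mdm2) and 1 lower (Perp), against 9.65% and 10.8% of all genes in the deposited table. The median log2 fold change of the 10 was 0.23, against 0.02 over all genes in the deposited table. The 10 genes and the lists given below were chosen with earlier results of these data known. Set beside all genes, their shares and medians are therefore descriptive. At a stricter adjusted p under 0.01, 0 of the 10 and 5.86% of all genes were called, and at 0.1, 3 of the 10 and 13.4%. With a minimum change of 1.5-fold, 2 of the 10 (Eda2r and Plk2) and 5.81% of all genes were called. With fold changes centred on the most abundant eighth of genes, the calls were 3 higher and 0 lower (Eda2r, Plk2 and Mdm2), and 7.02% and 3.76% of all genes.

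**Figure D1:**
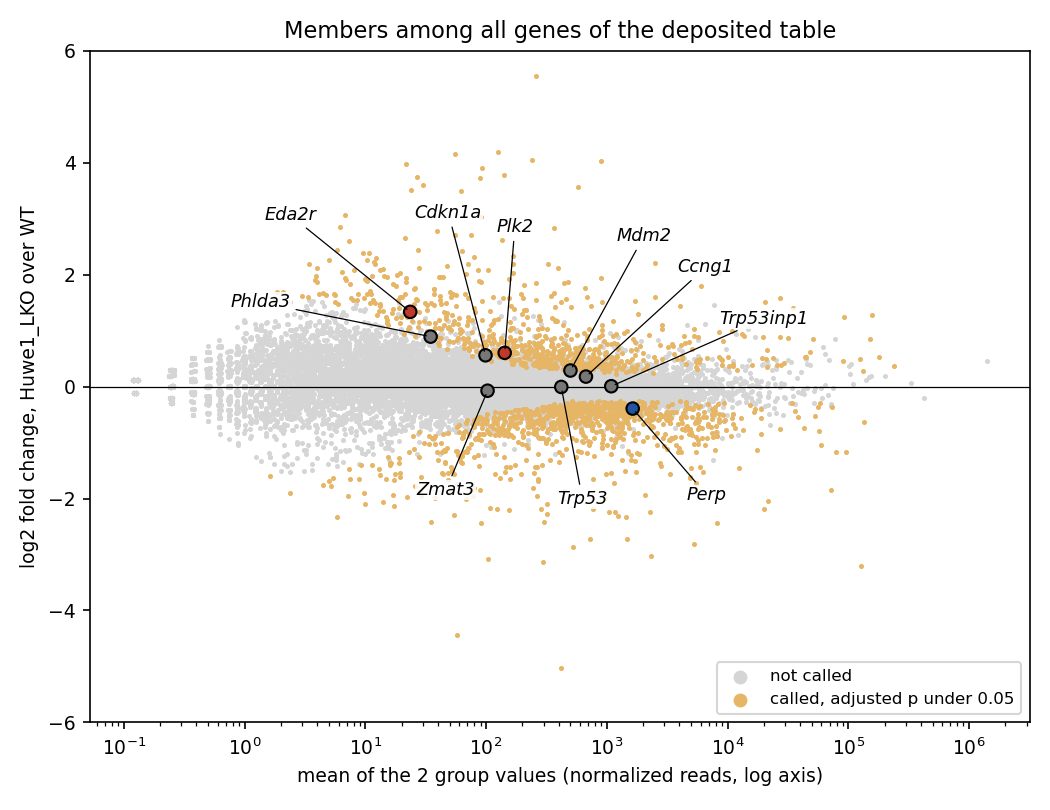
Log2 fold change of Huwe1_LKO over WT against the mean of both group values (log axis) for every gene of the deposited table, with the 10 genes outlined in black. Eda2r and Plk2 (red) are called higher, Perp (blue) is called lower, and the 7 grey genes lie in the cloud of genes not called.

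Trp53 (Entrez ID 22059; chromosome 11, 69580348 to 69591873) had a value of 421 in WT and 419 in Huwe1_LKO according to the authors' deposited table. The log2 fold change was -0.01 (SE 0.15), and its 95% interval ran from -0.31 to 0.30. A change of at least 0.43 on the log2 scale would have been needed to pass at this error. The sign of so small a value turned when fold changes were centred on the most abundant genes (0.08) or when the trend with gene length and level was removed (0.07). Trp63, a relative of p53 typical of squamous epithelium, was listed at 0.257 in both genotypes in the deposited table, too few reads for a fold change.

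Of the members, the feedback inhibitors Mdm2 and Ccng1 lay slightly higher without passing. Mdm2 (Entrez ID 17246; chromosome 10, 117688875 to 117710758) had a value of 451 in WT and 550 in Huwe1_LKO according to the authors' deposited table. Its log2 fold change was 0.29 (SE 0.13, DESeq2 adjusted p = 0.157), below the 0.36 needed at its error. Mdm2 was the 1 member that passed under another setting and not in the deposited table. Centred on the most abundant eighth of genes its log2 fold change was 0.37 with an adjusted p of 0.0411, in a range from 0.0411 to 0.180 over the refitted settings. Mdm4, the partner of MDM2 that masks the activation domain of p53, showed nearly the same log2 fold change (0.24, SE 0.10, DESeq2 adjusted p = 0.127 in the deposited table). It passed under the same centring, with an adjusted p of 0.0213 in a range from 0.0213 to 0.323.

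Ccng1 (Entrez ID 12450; chromosome 11, 40748552 to 40755309) encodes cyclin G1, which recruits a phosphatase to MDM2 and thereby restrains p53. Its deposited values were 630 in WT and 713 in Huwe1_LKO, a log2 fold change of 0.18 (SE 0.16) with a 95% interval from -0.14 to 0.50. The related cyclin G2 gene Ccng2, known as a target of FOXO factors, fell from 152 to 83.7 according to the authors' deposited table (log2 fold change -0.86, SE 0.27, DESeq2 adjusted p = 0.0235). The pair of cyclin G genes thus stood on opposite sides of 0, and the difference between them was not tested.

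Among the arrest genes, Plk2 rose and Cdkn1a did not pass. Plk2 (Entrez ID 20620; chromosome 13, 110395044 to 110400844), a polo-like kinase of early cell cycle and of centriole duplication, rose from 113 to 172 according to the authors' deposited table. This is 1.52-fold, a log2 fold change of 0.60 (SE 0.19, DESeq2 adjusted p = 0.0189) with a 95% interval from 0.23 to 0.97. Cdkn1a (Entrez ID 12575; chromosome 17, 29090979 to 29100722) encodes p21, the inhibitor of cyclin-dependent kinases through which p53 arrests cells. The deposited values of Cdkn1a were 80.0 in WT and 118 in Huwe1_LKO, 1.47-fold, close to the fold of Plk2. Its log2 fold change of 0.56 carried an SE of 0.41 (DESeq2 adjusted p = 0.516), and the 95% interval from -0.25 to 1.36 includes both no change and more than a doubling. The median SE of the 3516 genes with a mean value from 10 to 100, the class of Cdkn1a, was 0.32. Cdkn1a lies at the top of that class, with a mean value of 98.98. The median SE of the class from 100 to 1000 was 0.15, so the SE of Cdkn1a is wide for its level. Of the exon bases of Cdkn1a, 7.68% are shared with an antisense gene (AC167363.2), and without strand information reads there cannot be assigned.

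Relatives of both arrest genes gave mixed values. The mitotic kinase gene Plk1 had deposited values of 15.0 and 30.3 in WT and Huwe1_LKO, with a log2 fold change of 1.01 (SE 0.42) that did not pass. Plk3, a stress-responsive polo-like kinase, stood at 3211 and 3147 according to the authors' deposited table, with an SE of 0.50, and Plk4, the master kinase of centriole duplication, at 16.2 and 13.6. The inhibitor genes Cdkn1b (p27) and Cdkn1c (p57) had deposited log2 fold changes of 0.27 (SE 0.15) and 0.77 (SE 0.31), and neither passed. For Cdkn1c, 30.7% of exon bases are shared with an antisense gene.

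Zmat3 (Entrez ID 22401; chromosome 3, 32334792 to 32365665) encodes a zinc finger protein that binds RNA and acts in tumour suppression by p53. It had deposited values of 106 in WT and 100.3 in Huwe1_LKO, with a log2 fold change of -0.07 (SE 0.19) and a 95% interval from -0.44 to 0.29. Centred on the most abundant genes the value was 0.01.

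The receptor gene Eda2r showed the largest fold change of the 10. Eda2r (Entrez ID 245527; chromosome X, 97333837 to 97377234), a member of the tumour necrosis factor receptor family that binds the A2 form of ectodysplasin, rose from 13.4 to 33.7 according to the authors' deposited table. This is 2.52-fold, a log2 fold change of 1.34 (SE 0.42, DESeq2 adjusted p = 0.0187) with a 95% interval from 0.52 to 2.15. A larger positive log2 fold change was listed for 193 genes of the deposited table. The level was low in both genotypes, a range in which the deposited fold changes appear shrunken toward 0, and 8.33% of genes with a mean value from 10 to 100 were called. Eda, which encodes the ectodysplasin ligand, moved the other way, from 45.3 to 22.3 according to the authors' deposited table (log2 fold change -1.02, SE 0.32, DESeq2 adjusted p = 0.0205). The table does not separate the A1 and A2 forms of Eda, of which only A2 binds this receptor. Edar, the receptor of the A1 form, was listed at 0.913 and 1.09 in the deposited table and did not pass.

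Perp was the 1 member that fell. Perp (Entrez ID 64058; chromosome 10, 18845071 to 18857073), a membrane protein of desmosomes that also takes part in p53-driven apoptosis, went from 1861 in WT to 1417 in Huwe1_LKO according to the authors' deposited table. Its level in Huwe1_LKO was 76.2% of WT, a log2 fold change of -0.39 (SE 0.13, DESeq2 adjusted p = 0.0253) with a 95% interval from -0.64 to -0.14. The call ended when fold changes were centred on the most abundant genes (-0.31, adjusted p = 0.101) and when the trend with gene length and level was taken out (-0.27, adjusted p = 0.200), in a range of adjusted p from 0.0192 to 0.200. Pmp22, a myelin gene of the same protein family, had deposited values of 52.3 and 54.9 and did not pass.

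The signalling genes did not pass. Phlda3 (Entrez ID 27280; chromosome 1, 135766085 to 135769134), whose pleckstrin homology domain protein competes with AKT for membrane lipids, had values of 24.3 and 45.2 according to the authors' deposited table. That is 1.86-fold, the second largest fold of the 10, with a log2 fold change of 0.89 (SE 0.37, DESeq2 adjusted p = 0.111) and a 95% interval from 0.17 to 1.62. Its relative Phlda2, an imprinted gene that limits placental growth, rose from 3.05 to 13.0 according to the authors' deposited table (log2 fold change 2.09, SE 0.48, DESeq2 adjusted p = 0.000506). Phlda1 had a deposited log2 fold change of 0.26 (SE 0.24) and did not pass, and 32.97% of its exon bases are shared with an antisense gene.

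Trp53inp1 (Entrez ID 60599; chromosome 4, 11156441 to 11174379), a stress protein of autophagy and p53 activation, was level at 1087 and 1092 according to the authors' deposited table. Its log2 fold change of 0.01 had an SE of 0.31, and the 95% interval from -0.59 to 0.61 is wide for an abundant gene, as the median SE of the 2196 genes with a mean value above 1000 was 0.13. Centring on all genes with a mean value of at least 10 turned its sign (-0.00358), as did removing the length and level trend (-0.05). The relative Trp53inp2, which acts in autophagy, stood at 3284 and 3295 in the deposited table with an SE of 0.16.

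**Figure D2:**
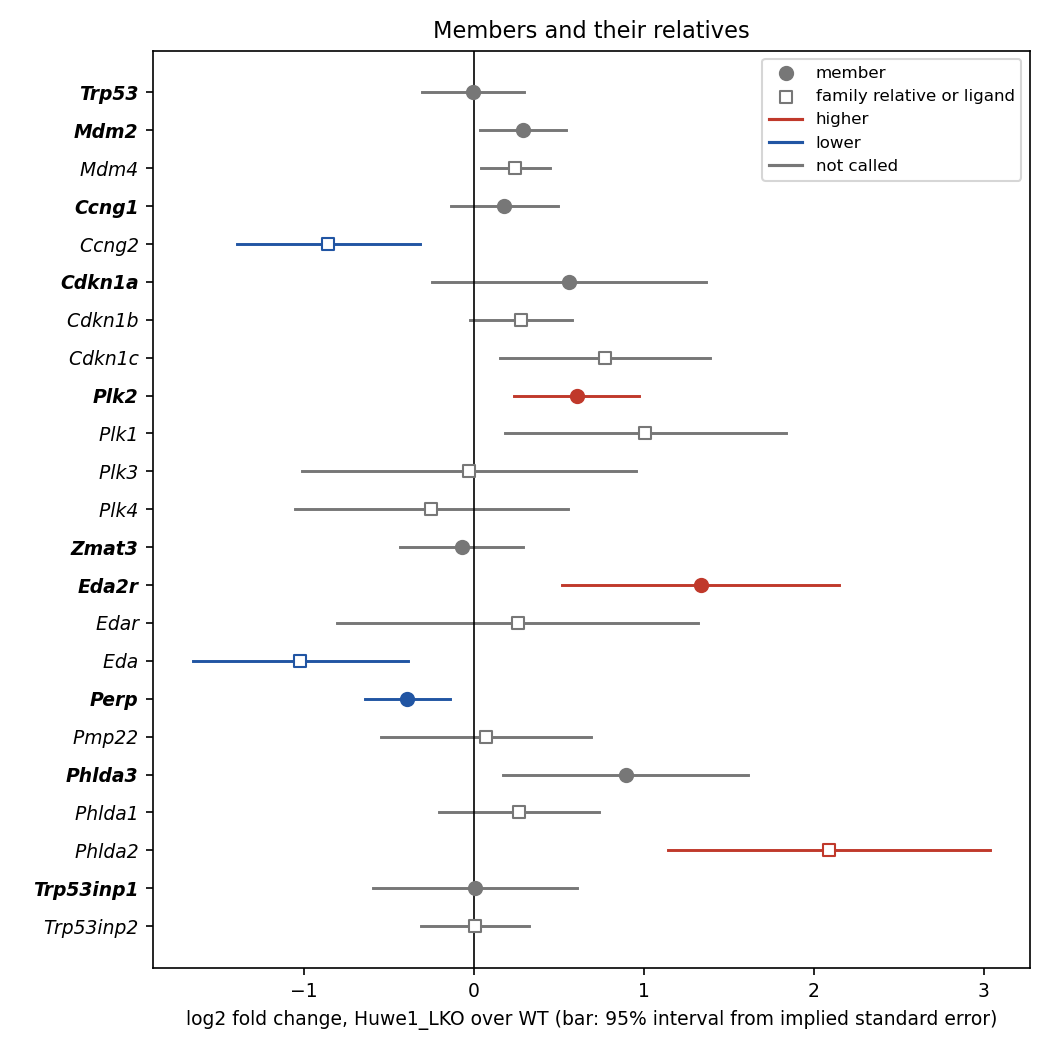
Log2 fold change of Huwe1_LKO over WT for the 10 genes (bold, circles) and their family relatives or ligand (squares), with 95% intervals from the implied SE; red is called higher, blue lower and grey not called. Eda2r (1.34) and its ligand gene Eda (-1.02) lie on opposite sides of 0, as do Ccng1 (0.18, not called) and Ccng2 (-0.86).

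Divided by gene length, the levels of the 10 genes spanned a wide range. Perp was the highest in WT at 979 normalized reads per kilobase, computed from the authors' deposited table, followed by Trp53 at 234, Trp53inp1 at 201, Ccng1 at 180 and Mdm2 at 144. Cdkn1a (41.8) and Plk2 (40.4) formed a lower pair on the same scale, and Phlda3 (16.4), Zmat3 (13.6) and Eda2r (3.18) were lowest in the deposited WT values. In Huwe1_LKO the order by deposited value per kilobase was the same except that Ccng1 (204) stood above Trp53inp1 (202). Eda2r remained the lowest at 8.03 in the deposited Huwe1_LKO values, below Zmat3 at 12.9, even after its rise. Without values per liver, neighbours in this order could not be tested against their spread.

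**Figure D3:**
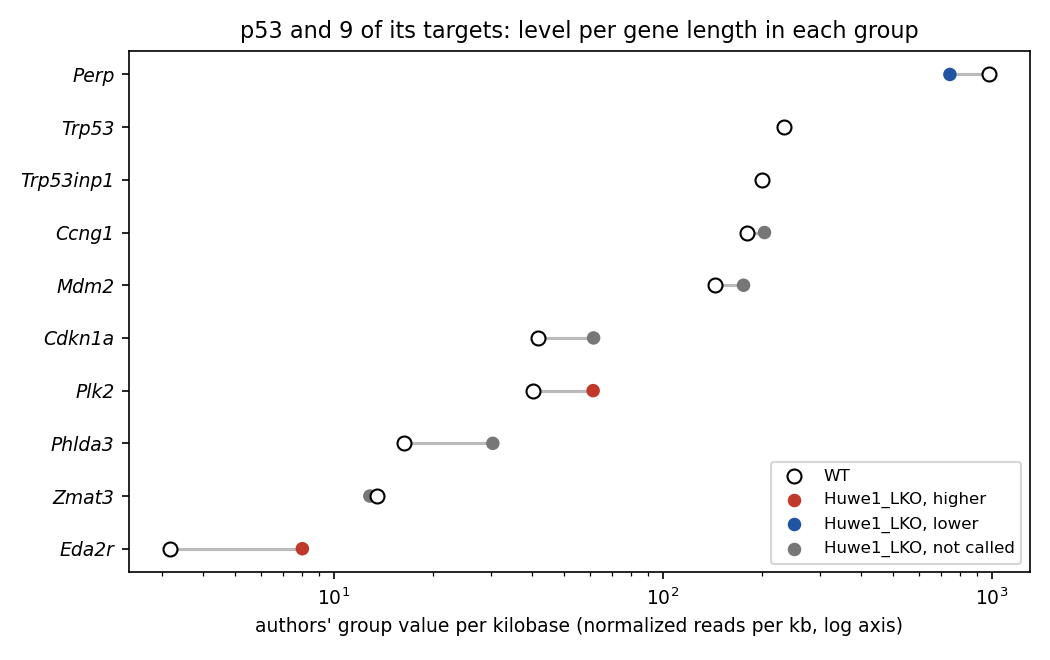
Authors' group value divided by gene length (normalized reads per kilobase, log axis) for each of the 10 genes, open circles for WT and filled circles for Huwe1_LKO. The genes run from Eda2r (3.18 in WT, 8.03 in Huwe1_LKO) to Perp (979 and 746), and the circles of Trp53 and Trp53inp1 coincide.

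Other well-known p53 targets went both ways as well. Of 48 further targets, 2 rose, 4 fell and 42 did not pass according to the authors' deposited table, which is 12.5% called against 9.97% of all genes and 13.1% of genes with a mean value of at least 10, a level that 42 of the 48 reached. Centring on the most abundant eighth of genes gave 4 higher and 3 lower (7.02% and 3.76% of all genes), and removing the length and level trend 3 and 3. Their median log2 fold change was 0.06, against 0.02 over all genes in the deposited table.

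Among 12 cell death targets, Bbc3 and Ei24 fell, 0 rose and 10 did not pass according to the authors' deposited table. Of all genes, 5.56% were called lower and 4.41% higher. At an unadjusted p under 0.05, 2 of the 12 lay higher and 2 lower, beside 9.65% and 10.8% of all genes. The log2 fold change was above 0 in 7 of the 12. Bbc3, the gene of the BH3-only killer protein PUMA, had deposited values of 212 and 73.9, or 34.8% of WT (log2 fold change -1.52, SE 0.36, DESeq2 adjusted p = 0.000786). Ei24, which encodes a membrane protein of the endoplasmic reticulum, fell from 3390 to 2363 according to the authors' deposited table (log2 fold change -0.52, SE 0.14). Bax, the pore-forming death effector, was at 346 and 366 in the deposited table and did not pass.

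Of 6 DNA repair targets, Ddb2 alone was called higher, 0 were called lower, and the list had a median log2 fold change of 0.38 according to the authors' deposited table. At an unadjusted p under 0.05, 4 of the 6 lay higher and 0 lower, beside 9.65% and 10.8% of all genes. Ddb2, which recognises ultraviolet damage, went from 95.8 to 150.4 in the deposited table (log2 fold change 0.65, SE 0.19, DESeq2 adjusted p = 0.0104), and 23.8% of its exon bases are shared with Acp2 on the other strand, whose deposited log2 fold change was -0.06. Of 8 genes of arrest and growth control, 0 were called by DESeq2 in the deposited table, and 3 had an unadjusted p under 0.05 (1 higher and 2 lower).

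Metabolic and redox targets numbered 10, of which Gpx1 rose and Sco2 and Aldh4a1 fell according to the authors' deposited table. Of all genes, 4.41% were called higher and 5.56% lower. Sco2, an assembly factor of cytochrome c oxidase, went from 851 to 380 in the deposited table (log2 fold change -1.17, SE 0.15, DESeq2 adjusted p = 3.7e-13). Its exons share 91.8% of their bases with Tymp and Ncaph2, and Tymp, on the same strand, had a deposited log2 fold change of -1.08, so the value of Sco2 is uncertain. Gpx1, a glutathione peroxidase, rose from 24275 to 31650 according to the authors' deposited table (log2 fold change 0.38, SE 0.10). Aldh4a1, an enzyme of proline breakdown, had a deposited log2 fold change of -0.42 (SE 0.13, DESeq2 adjusted p = 0.0189). The call of Aldh4a1 ended when fold changes were centred on the most abundant genes (adjusted p = 0.0776) and when the trend with gene length and level was taken out (adjusted p = 0.0944), in a range from 0.0143 to 0.0944, and 32.5% of its exon bases are shared with another gene. Of 12 feedback and other targets, 0 were called by DESeq2 in the deposited table and 1 had an unadjusted p under 0.05.

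Some regulators that act on the p53 protein changed. Of 20 regulators, 3 rose (Trim24, Ep300 and Ppp1r13b) and Prkdc fell according to the authors' deposited table, 20% called against 9.97% of all genes. Among genes with a mean value of at least 10, a level that 19 of the 20 reached, 13.1% were called. With the most abundant eighth of genes as centre, 6 were higher and 0 lower, beside 7.02% and 3.76% of all genes. Trim24, a ubiquitin ligase of p53, rose from 363 to 653 according to the authors' deposited table (log2 fold change 0.85, SE 0.18, DESeq2 adjusted p = 0.000118). Ep300, the acetyltransferase p300 that coactivates p53, rose from 465 to 637 (log2 fold change 0.45, SE 0.12), and Ppp1r13b, the gene of the p53 partner ASPP1, from 272 to 353 (0.38, SE 0.13) in the deposited table. Prkdc, the catalytic subunit of DNA-dependent protein kinase, had deposited values of 120.2 and 81.1 (log2 fold change -0.57, SE 0.20, DESeq2 adjusted p = 0.0429). The call of Prkdc ended when fold changes were centred on the most abundant genes (adjusted p = 0.0979, in a range from 0.0186 to 0.0979). With the length and level trend removed, the call of Ppp1r13b ended (adjusted p = 0.0683, in a range from 0.00551 to 0.0683).

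The cell cycle genes that p21 holds down through the DREAM repressor complex are a readout downstream of Cdkn1a. Of 16 such genes, 0 were called by DESeq2 according to the authors' deposited table, and Plk1 and Mki67 had an unadjusted p under 0.05, both higher. The log2 fold change was above 0 in 13 of 16, beside 8844 of all 16640 genes in the deposited table. Its median was 0.52 in these 16 genes against 0.02 over all genes. Their median SE was 0.46, so the data set no narrow bound on these weakly expressed genes.

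**Figure D4:**
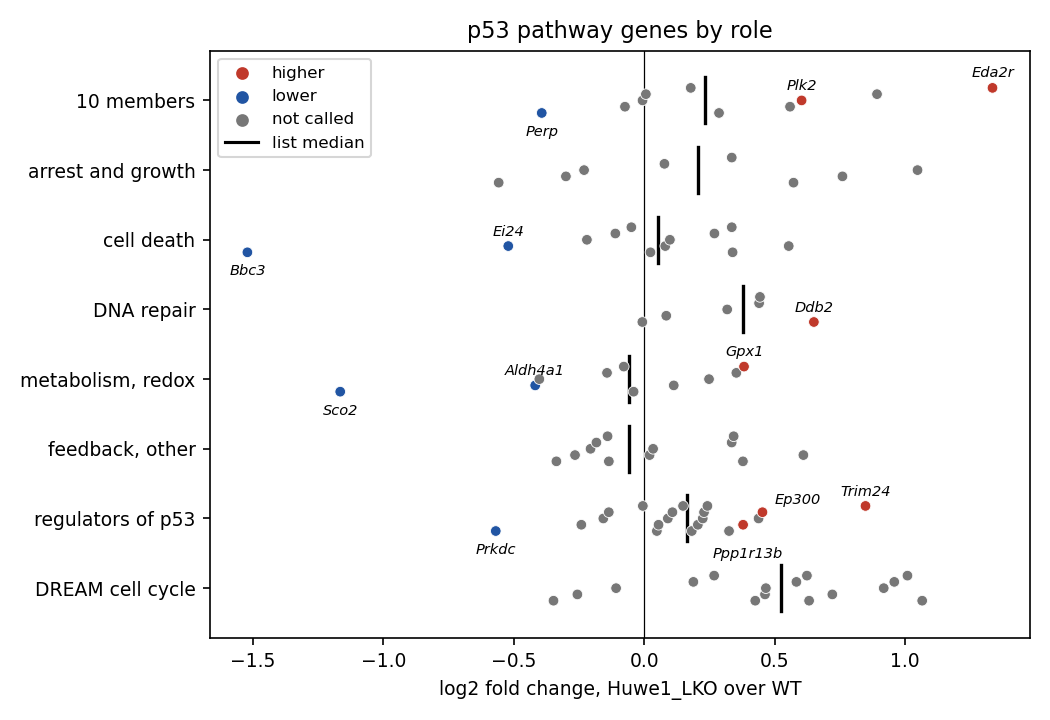
Log2 fold change of Huwe1_LKO over WT for the 10 members and for other p53 pathway genes by role, 1 point per gene with a small vertical offset for legibility; red is called higher, blue lower, grey not called, and the black bar is the list median. Calls fall on both sides of 0 in the members, the metabolic targets and the regulators, and the DREAM cell cycle genes have the highest median (0.52) with 0 called.

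A wider set was taken from the annotation in the deposited table, as all genes with a gene ontology term that names p53. Of these 158 genes, 11 rose and 6 fell according to the authors' deposited table, 10.8% called, close to the 9.97% of all genes. Among genes with a mean value of at least 10, a level that 142 of the 158 reached, 13.1% were called. Centred on the most abundant eighth, 19 were higher and 4 lower, beside 7.02% and 3.76% of all genes. The set holds 5 of the 10 members, and without them 15 of 153 were called in the deposited table. The smallest adjusted p belonged to E2f7, an E2F repressor that is itself a p53 target, which rose from 19.8 to 106 according to the authors' deposited table (log2 fold change 2.42, SE 0.45, DESeq2 adjusted p = 5.52e-06). Smyd2, a methyltransferase that acts on p53, fell from 423 to 209.8 in the deposited table (log2 fold change -1.01, SE 0.19), and 29.96% of its exon bases are shared with an antisense gene. Dyrk1a, a kinase that assembles the DREAM complex, rose (0.42, SE 0.10), while the ribosome biogenesis gene Bop1 (-0.49, SE 0.12) and the cytokine gene Mif (-0.66, SE 0.17), whose product restrains p53, fell, as log2 fold changes according to the authors' deposited table.

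Markers of liver cell types were read beside these values. No value in the deposited table is 0, so a listed value does not show that a marker was detected. Of 6 hepatocyte markers, Hnf4a was called higher and Apoa2 lower in the deposited table, the latter with an adjusted p of 0.0850 when centred on the most abundant genes (range 0.0297 to 0.0854). The 6 neutrophil markers summed to 117 in WT and 245 in Huwe1_LKO according to the authors' deposited table, and 2 of them were called higher (S100a9 and Retnlg). At an unadjusted p under 0.05, 5 of the 6 lay higher and 0 lower, beside 9.65% and 10.8% of all genes. The sixth, Ly6g, had deposited values of 7.52 and 5.02 and did not pass. The call of Retnlg ended when fold changes were centred on genes with a mean value of at least 10 (adjusted p = 0.0506) and when the trend with length and level was taken out (adjusted p = 0.0946), in a range from 0.0329 to 0.0946. Of 6 markers each for cholangiocytes, stellate cells, endothelial cells and macrophages and 5 measured for lymphocytes, 0 were called by DESeq2 in the deposited table. At an unadjusted p under 0.05 there was 1 among them, the cholangiocyte marker Spp1, which carried the summed cholangiocyte level from 902 to 1622 in the deposited table. The ratio of summed levels, Huwe1_LKO over WT, lay between 1.04 and 1.21 for stellate cells, endothelial cells, macrophages and lymphocytes in the deposited table. The part of any of these cells in the rise of Eda2r and Plk2 was not tested.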

How the data were processed

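A commercial provider sequenced RNA from whole liver of 4 WT and 4 Huwe1_LKO mice (per the labels' protocols). The submitters' processing notes name the build mm10 and the tool DESeq2, without a version; for the aligner and the counting step these sources give no name. Per the file headers and values, the deposited expression columns hold 1 normalized signal per gene and group, which sums to 17347886 (WT) and 17533080 (Huwe1_LKO); the depth of single livers is not known from it. The deposited log2 fold change equals the log2 ratio of both values to within 4.71e-08. Adjusting the deposited p-value by Benjamini-Hochberg over all 16640 genes gave the deposited adjusted p to within 1.74e-06. The planned count model needs values per liver and could not be fitted, so calls are the authors', at 0.05.

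The SE is the log2 fold change over the normal score of the unadjusted p, which assumes a Wald test. No SE in the table exceeds 0.57 and no value is 0, so fold changes of low genes appear shrunken and understate the change. Refitted settings moved the fold change and kept the SE. Functions were tested on simulated data.

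The members and lists were chosen with earlier results of these data known. Named were all members and their relatives, Huwe1, markers and, of each list, the called genes up to 8 by smallest p; Bax and Mki67 were added after their values were seen, and Tymp, Ncaph2 and Acp2 for shared exon bases. Coordinates and promoter sequences are from RefSeq GRCm38.p6, the assembly of mm10; 16608 Entrez IDs were found there. Exon overlap used GENCODE M21. Trp73 and Trbc2 had no row and were not analysed here. Software was scipy 1.17.1, pandas 2.3.3, numpy 2.4.6 and matplotlib 3.10.9 under Python 3.11.15.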

Additional observations from a re-analysis of the deposited data

How the results depend on the processing

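The calls of Eda2r and Plk2 held under 6 of the 7 alternatives, not all of which could end a call. A call at 0.05 cannot end at an adjusted p under 0.1, and the 1.5-fold minimum reuses the deposited p. Only both centrings and the trend removal moved fold changes. Under them the adjusted p reached at most 0.0422 for Eda2r and 0.0216 for Plk2. Both calls ended at an adjusted p under 0.01. At that threshold 0 of the 10 members, 2 of 20 regulators and 9 of 158 annotated genes were called. So were 1 of the family relatives and 5.86% of all genes. At an adjusted p under 0.1, 26 annotated genes (13 higher and 13 lower) and 13.4% of all genes were called. With a minimum change of 1.5-fold, 3 of 48 other targets, 1 regulator, 7 annotated genes and 5.81% of all genes were called. Signs turned only in genes near 0. Centred on genes with a mean value of at least 10, Trp53inp1 was at -0.00358 and Trp53inp2 at -0.00508. Centred on the most abundant eighth, Trp53 was at 0.0754, Zmat3 at 0.00805, Plk3 at 0.0526 and Acp2 at 0.0233. With the length and level trend removed, Trp53 was at 0.0724, Trp53inp1 at -0.0492, Plk3 at 0.0918 and Pmp22 at -0.0845. Over 51 genes and 7 alternatives, 305 values kept direction and call, 36 lost the call, 6 gained it and 10 turned sign. Only the centring and trend settings could turn a sign, since the others left fold changes as deposited. A gene not called could not gain a call at 0.01 or with the 1.5-fold minimum. Many kept values were thus fixed in advance, and the tally does not measure stability. Trp63, with too few reads for a fold change, was left out. Phlda2 and Retnlg lost their calls in the adjustment over genes with a mean value of at least 10 because they were not among them. For the centring and trend settings the cause was not tested.

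No paired analysis was possible because the table holds 1 value per group, and for the same reason leaving out single livers and another count tool were not run. Among the 10 members, Eda2r, Cdkn1a and Phlda3 have the largest SEs (0.42, 0.41 and 0.37).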
